A study of Homo sapiens with 6 samples.

Results

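In all, 10 genes that drive or mark cell division were examined for peaks of SON and HMGB2 in IMR90 human embryonic lung fibroblasts. They were E2F1, CCNE2, MCM2, CCNA2, CDK1, CCNB1, CCNB2, TOP2A, MKI67 and EZH2, 10 of the 19974 protein-coding genes on chromosomes 1 to 22 and X in the RefSeq table of GRCh38.p14. They were chosen by name, as genes known to be shut off when fibroblasts stop dividing for good. A peak was assigned to a gene when it overlapped the RefSeq span of the gene or the 5 kb on either side. By this rule the 10 genes held 21 peaks.

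SON is a scaffold protein of nuclear speckles, and HMGB2 is a chromatin protein of the high mobility group. Both were mapped by ChIPmentation, in which antibody-bound chromatin is tagged with sequencing adapters by a transposase on the beads. The 4 groups, of 1 list each, were SON without treatment, SON after ICM for 3 days, SON after ICM for 6 days and HMGB2 without treatment. The labels do not spell out ICM. Cells for SON were fixed with formaldehyde, cells for HMGB2 with EGS and then formaldehyde. The labels name no genotype, transgene or number of cultures. An input of HMGB2 and a further sample titled with DSG were not analysed here. The lists held 22362 lines for SON in untreated cells, 11158 at 3 days, 5583 at 6 days and 6013 for HMGB2. Read depth is unknown. With 1 list per group there is no test between conditions, and a list gives only the peaks that were called, so a gene without a peak is not a gene without signal. Peak lists measure neither expression nor cell identity, so neither the silencing of these genes nor the fibroblast label was checked here.

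In dividing cells E2F transcription factors switch on the genes of DNA replication, and a later wave of genes for mitosis is switched on through the B-MYB and MuvB proteins with FOXM1. When cells leave the cycle, RB and the DREAM complex, in which p130 and E2F4 join MuvB, hold these promoters off. E2F factors read GC-rich sites, and the NF-Y factor reads the CCAAT box that many mitotic genes carry in several copies. MuvB reads a short element called CHR, of which only the spellings TTTGAA and TTTAAA were searched for here. Loss of this programme is a hallmark of senescence in fibroblasts.

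The promoters are shown because 18 of the 21 peaks had their summit within 200 bp of a start of their gene. RefSeq promoter windows (GRCh38.p14, 250 bases before and 50 after a start) were found for 9 of the 10 genes, not for CCNE2. The bases before the start are printed 5′ to 3′ on the strand of the gene for CCNA2, CCNB1, CCNB2 and TOP2A, which had SON peaks, for MKI67, which had no peak in any list, and for MCM2, a gene of DNA replication. The MCM2 stretch begins after the end of the neighbouring gene TPRA1. For CDK1 a stretch of 30 bases between its 2 starts is given. Capitals mark CCAAT, the CHR letters TTTGAA and TTTAAA, and the E2F-like letters GGCGGGA, TTTGGCGC, TTTCGCGC and TTTCCCGC, on either strand.
CCNA2, chr4:121823884-121824133, - strand: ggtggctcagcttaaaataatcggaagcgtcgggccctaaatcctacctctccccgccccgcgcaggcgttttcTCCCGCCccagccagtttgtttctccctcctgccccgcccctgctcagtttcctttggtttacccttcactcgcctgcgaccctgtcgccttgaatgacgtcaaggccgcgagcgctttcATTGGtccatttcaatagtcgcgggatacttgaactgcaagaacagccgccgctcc
CCNB1, chr5:69166900-69167149, + strand: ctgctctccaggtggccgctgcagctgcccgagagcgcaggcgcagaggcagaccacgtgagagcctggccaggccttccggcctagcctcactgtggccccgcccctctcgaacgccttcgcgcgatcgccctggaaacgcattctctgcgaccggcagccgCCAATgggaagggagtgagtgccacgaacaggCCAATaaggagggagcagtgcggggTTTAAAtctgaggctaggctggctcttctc
CCNB2, chr15:59104896-59105145, + strand: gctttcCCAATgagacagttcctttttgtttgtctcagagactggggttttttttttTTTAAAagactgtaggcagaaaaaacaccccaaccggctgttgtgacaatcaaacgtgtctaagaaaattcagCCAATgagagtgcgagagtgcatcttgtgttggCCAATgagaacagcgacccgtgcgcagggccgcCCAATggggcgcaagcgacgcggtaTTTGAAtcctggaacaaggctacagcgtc
TOP2A, chr17:40417897-40418146, - strand: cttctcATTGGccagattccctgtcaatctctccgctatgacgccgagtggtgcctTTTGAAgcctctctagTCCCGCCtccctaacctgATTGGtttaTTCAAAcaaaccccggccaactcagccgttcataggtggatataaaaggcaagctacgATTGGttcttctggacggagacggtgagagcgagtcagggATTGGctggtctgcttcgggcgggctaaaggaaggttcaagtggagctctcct
MKI67, chr10:128126424-128126673, - strand: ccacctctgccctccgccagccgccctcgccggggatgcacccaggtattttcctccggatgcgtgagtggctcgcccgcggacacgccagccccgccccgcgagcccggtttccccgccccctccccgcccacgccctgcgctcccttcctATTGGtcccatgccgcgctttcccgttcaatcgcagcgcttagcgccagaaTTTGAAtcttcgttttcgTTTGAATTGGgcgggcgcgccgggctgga
MCM2, chr3:127598232-127598410, + strand: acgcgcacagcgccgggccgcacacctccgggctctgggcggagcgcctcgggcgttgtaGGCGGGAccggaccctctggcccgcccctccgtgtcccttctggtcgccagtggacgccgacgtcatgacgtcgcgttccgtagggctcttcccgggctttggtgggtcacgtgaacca
CDK1, chr10:60778394-60778423, + strand: gctctgATTGGctgcTTTGAAagtctacgg

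The letters of the mitotic class were frequent in these windows. CCAAT was present in the windows of 8 of the 9 genes, all but MCM2, and in 34.6% of all 35116 windows. At least 2 copies were held by 7 of the 9 genes and by 10.8% of all windows. A gene was counted when any of its windows held the letters, whereas the shares are of single windows. CDK1 and EZH2 had 2 windows each, and CDK1 reached 2 CCAAT copies only in the window of its second start. TTTGAA or TTTAAA was present for CDK1, CCNB1, CCNB2, TOP2A and MKI67, against 24% of all windows. These 5 genes also had 2 or more CCAAT copies in the same window, a combination found in 2.73% of all windows. GGCGGGA was present for 6 of the 9 genes (15.4% of all windows), TTTGGCGC for E2F1 and EZH2 (0.652%), TTTCGCGC for MCM2 and CDK1 (0.515%) and TTTCCCGC for none of the 9 (1.63%). Of letters from other motifs, the CTCF core AGGGGGC was present for MKI67 alone (14.4%), and the GC box GGGCGG for all 9 (45%). GGCGGGA can overlap GGGCGG by its first 5 bases, and in MKI67 a TTTGAA shares 1 base with a CCAAT on the opposite strand. A match describes the letters and not a bound site, and a window without a match may hold the element in another spelling.

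SON peaks were present at 9 of the 10 genes in untreated cells, at 7 after 3 days and at 0 after 6 days. Over all protein-coding genes the same rule gave 57.1%, 41% and 21.5% in that order. HMGB2 peaks were present at 4 of the 10 genes, against 23.3% of all genes. Counted within 1 kb of a start, or of either end where no start is given, the numbers of genes were the same in all 4 lists, against 40.1%, 28.2% and 11.7% of all genes for SON and 15.2% for HMGB2. The 11194 genes whose spans lie between the shortest (7440 bp, CCNA2) and the longest (76909 bp, EZH2) of the 10 stood at 59.4%, 42.6% and 21.0% for SON and 23.8% for HMGB2, close to all genes. MCM2, CDK1 and TOP2A had peaks in 3 lists, CCNE2, CCNA2, CCNB1, CCNB2 and EZH2 in 2, E2F1 in 1 and MKI67 in none.

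**Figure D1:**
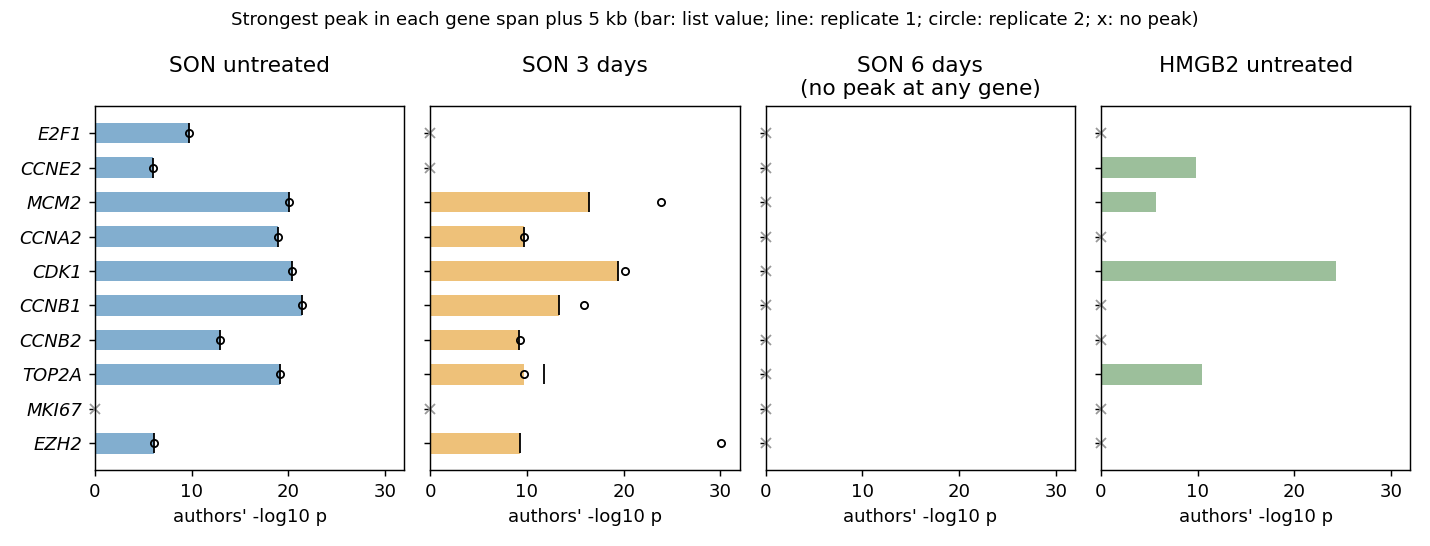
The authors' −log10 p of the strongest peak (x axis) in the span of each gene plus 5 kb, for the 10 genes (rows) in the 4 lists (panels). Bars are the value of the list, vertical lines and circles the values of replicates 1 and 2 of the SON lists, and crosses genes with no peak. The untreated SON panel has bars for 9 genes, the 3-day panel for 7 and the 6-day panel for 0.

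Each SON line carries the −log10 p of 2 replicates, and the value of the line is the lower one. How the replicates were made is not stated. In the untreated list both replicates had the same value at the strongest peak of all 9 genes, as in 55.9% of all lines of that list, so these pairs say nothing about spread. The irreproducible discovery rate (IDR) printed below is the authors' global value. It does not measure agreement alone, because it also followed strength where both replicates had the same value. In the untreated list it was 0.00435 for CCNB1, with 21.5 in both, and 0.431 for CCNE2, with 6.00 in both. Strengths depend on depth, so a difference in strength between lists was not read as a gain or loss. For the strongest peaks of the 9 genes they are printed beside the rank in the list. For the genes of the further lists below, most are printed without it.

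Among the genes of the G1/S transition, E2F1 encodes the activating E2F factor, CCNE2 the cyclin E2 that partners CDK2 at S phase entry, and MCM2 a subunit of the replicative helicase. MCM2 had the strongest untreated SON peak of the 3, with a −log10 p of 20.1, rank 3577 of 22362 and an IDR of 0.00483. At 3 days its peak had 16.4 in replicate 1 and 23.9 in replicate 2, rank 1931 of 11158 and an IDR of 0.00424. The untreated summit lay 91 bp before the MCM2 start and 89 bp from the end of TPRA1, which begins on the other side, so the peak cannot be given to one gene. The MCM2 peak spanned chr3:127598041-127598541.

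E2F1 had 2 SON peaks in untreated cells and none at 3 or 6 days. The peak at its start, chr20:33686316-33686788, had a −log10 p of 9.69 and ranked 11543, just below the median of the list (9.91), with an IDR of 0.0145. The other lay 864 bp beyond the far end of the gene inside NECAB3, with 7.46 in replicate 1, 5.74 in replicate 2 and an IDR of 0.431, the largest value in the list. Of all peaks inside the 5 kb limit it was the only one more than 200 bp from a start of its gene, leaving out the 2 peaks at CCNE2. Just outside the limit were an untreated SON peak in TPRA1, 7.22 kb from MCM2, with 13.7, and a peak in NECAB3, 8.46 to 8.57 kb from E2F1, that was present in all 4 lists.

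CCNE2 had a weak untreated SON peak and none later. Its −log10 p was 6.00, with rank 20157 and an IDR of 0.431. It lay at chr8:94895108-94895874, inside the CCNE2 span, with its summit 94 bp from the end of the span of NDUFAF6, which overlaps CCNE2. The 3 G1/S genes therefore covered nearly the whole range of strength found among the 10 genes.

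CCNA2 encodes cyclin A2, which acts in S phase and up to mitosis. Its untreated SON peak at chr4:121823785-121824238 had a −log10 p of 18.9, rank 4010 and an IDR of 0.00536. At 3 days both replicates gave 9.74, rank 4946 of 11158, with an IDR of 0.0588. The untreated summit lay 123 bp before the start of CCNA2 and 323 bp from the end of BBS7.

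CDK1, CCNB1, CCNB2 and TOP2A, which act in G2 and mitosis, had SON peaks in untreated cells and at 3 days, and MKI67 had none. CDK1 encodes the kinase that starts mitosis, CCNB1 and CCNB2 its B-type cyclins, and TOP2A the topoisomerase that untangles sister chromatids. CCNB1 had the strongest untreated SON peak of all 10 genes, at chr5:69166777-69167271, with a −log10 p of 21.5, rank 3112 and an IDR of 0.00435. At 3 days it had 13.3 in replicate 1 and 15.9 in replicate 2, rank 2798 and an IDR of 0.0121. This peak stood in the first 13.9% of the untreated list and the first 25.1% of the 3-day list.

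CDK1, at chr10:60778089-60778559, had 20.4 in untreated cells, rank 3498 and an IDR of 0.00474. At 3 days it had 19.4 and 20.2 in the 2 replicates, rank 1456 and an IDR of 0.00674, which made it the highest-ranked of the 7 genes in that list. TOP2A, at chr17:40417834-40418314, had 19.1 in untreated cells, rank 3941 and an IDR of 0.00527. At 3 days it had 11.7 and 9.73, rank 4952 and an IDR of 0.0928. CCNB2, at chr15:59104822-59105280, was the weakest of the 4 in untreated cells, with 13.0, rank 7551 and an IDR of 0.0095. At 3 days it had 9.20 and 9.32, rank 5453 and an IDR of 0.0641.

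MKI67 encodes the Ki-67 protein that coats mitotic chromosomes and is the usual stain for dividing cells. It was the only one of the 10 genes with no peak in any list, and its promoter window held TTTGAA and at least 2 CCAAT copies, as did those of CDK1, CCNB2 and TOP2A. The nearest peak of each SON list lay 1055 kb from its span, and the nearest HMGB2 peak 5983 kb. Only 3 other protein-coding genes lay within 500 kb of MKI67, against 2 for CDK1 and 7 to 29 for the other 8 genes.

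EZH2 encodes the histone H3 lysine methyltransferase of Polycomb repressive complex 2 (PRC2). In untreated cells its SON peak at chr7:148884136-148884676 was among the weakest of the list, with a −log10 p of 6.14, rank 19749 and an IDR of 0.431. At 3 days it ranked 5374 of 11158 with an IDR of 0.119, and its 2 replicates were far apart, with 9.29 and 30.03. It was the only one of the 7 genes found at 3 days whose untreated peak stood in the weaker 50% of its list, while all 7 stood in the stronger 50% at 3 days. One EZH2 replicate lay above, and the other below, most replicate values of the other 6 genes at 3 days.

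Peaks sat at the same place in each list. Of the 8 genes with a RefSeq start and a peak, the untreated summit lay within 186 bp of the first start in each, from 53 to 186 bp before it in 7 genes and 11 bp after it in CDK1, whose other start lies 147 bp further on. Summits at 3 days were 4 to 63 bp from the untreated ones, and at least 98.3% of the shorter peak was shared in all 7 genes. Against the letters printed above, the untreated CCNB2 summit fell on the middle base of a CCAAT, and the TOP2A summit lay 9 bp from the middle of a TTTGAA on the opposite strand. In CCNB1 and CDK1 the nearest CCAAT was 72 and 60 bp away. The nearest GC box GGGCGG lay 0 to 10 bp from the untreated summit at E2F1, EZH2, MCM2, CDK1 and CCNB1. It was 16 bp away at CCNA2, 30 at CCNB2 and 106 at TOP2A. Whether summits lie nearer to any of these letters than to others was not tested.

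**Figure D2:**
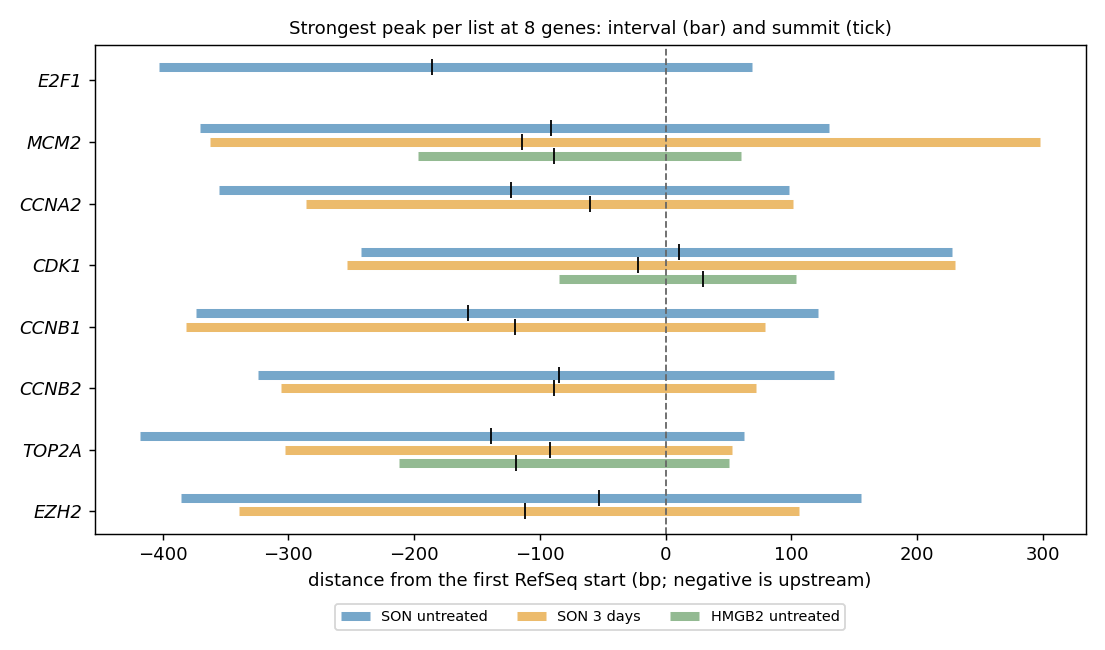
Interval (bar) and summit (tick) of the strongest peak of each list, as distance in bp from the first RefSeq start, negative upstream, for the 8 genes with a peak and a start in the promoter table. The peaks of the SON lists and of HMGB2 lie over one another, and the untreated summits lie from 186 bp before to 11 bp after the start.

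HMGB2 peaks lay at CDK1, TOP2A, CCNE2 and MCM2, and each overlapped an untreated SON peak, as did 62.4% of all HMGB2 peaks. Of all genes with an HMGB2 peak, 93.0% also had an untreated SON peak. Among HMGB2 peaks at starts within 5 percentile points of each of the 4 in strength, 65.8% to 97.4% met one. CDK1 had by far the strongest HMGB2 peak of the 4, with a fold enrichment of 9.15 and a −log10 p of 24.3. It ranked 206 of 6013, in the first 3.43% of the list. TOP2A had a fold of 3.59 and a −log10 p of 10.5 (rank 2400), CCNE2 6.08 and 9.86 (rank 2798), and MCM2 3.52 and 5.74 (rank 5671). The summits of HMGB2 and SON were 2 bp apart at MCM2, 19 at CDK1, 20 at TOP2A and 161 at CCNE2. The HMGB2 summit at CCNE2 lay 67 bp from an end of NDUFAF6, and that at MCM2 lay 91 bp from an end of TPRA1. Neither peak can be given to one gene. CCNA2, CCNB1, CCNB2 and EZH2 had SON peaks in untreated cells and at 3 days and no HMGB2 peak. Of untreated SON peaks within 5 percentile points of theirs in strength, 24.3%, 27.8%, 17.9% and 7.38% met an HMGB2 peak, in that order. Among such peaks within 1 kb of a start, the shares were 34.6%, 36.1%, 28.2% and 16.8%. Fixation differed between the targets and goes with any contrast of SON with HMGB2.

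How often peaks of like strength are found again was used as the yardstick for the later lists. Over all untreated SON peaks, 45.7% overlapped a 3-day peak and 22.2% a 6-day peak, and both shares climbed with strength. For each gene the share was taken over untreated peaks within 5 percentile points of its own strongest peak. Such peaks were found at 3 days in 81.2% to 88.3% for CCNA2, TOP2A, MCM2, CDK1 and CCNB1, in 56.8% for CCNB2, 35.5% for E2F1, 14.9% for EZH2 and 13.7% for CCNE2. The 7 genes found at 3 days were thus the 6 strongest of the untreated list and EZH2, and those not found were E2F1 and CCNE2. The 9 shares at 3 days add up to 5.43 genes, and to 6.01 over like peaks within 1 kb of a start, where 7 were found.

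At 6 days peaks of like strength were found in 36.8% to 45.1% for the same 5 genes, in 19.3% for CCNB2 and in 5.68% to 13.1% for E2F1, EZH2 and CCNE2, while none of the 9 genes was. Among like peaks within 1 kb of a start the shares were lower for each of the 9 genes, 24.9% to 35.2% for the 5 strong ones and 3.01% to 11.2% for the other 4. The 9 shares add up to 2.46 genes over all like peaks and to 1.69 over those at starts, where 0 were found. From 3 to 6 days the shares of like peaks at starts ran from 16.8% for TOP2A to 64.9% for CDK1. They add up to 2.25 of the 7 genes, and to 3.31 over all like peaks, where again 0 were found. The difference between these sums and 0 was not tested. The genes and rules were chosen with earlier results of these data known, so the counts of 0 cannot serve as a test. The CDK1 and MCM2 peaks (53.4%) had the highest shares of the 7.

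**Figure D3:**
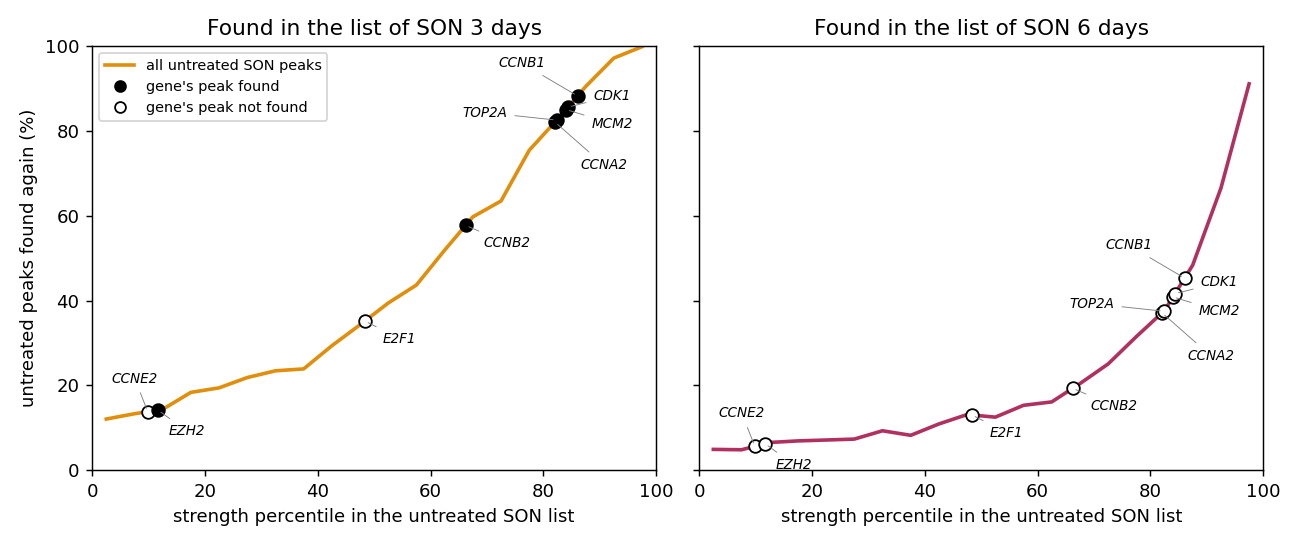
Share of untreated SON peaks that overlap a peak at 3 days (left) or 6 days (right), in percent, by strength percentile in the untreated list in classes of 5 points (line). Circles place the 9 genes with an untreated peak on the line at their own percentile, filled where the peak of the gene was found. Filled circles number 7 at 3 days and 0 at 6 days.

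The lists differ in length, so equally many of the strongest lines were also compared, about as many as the 6-day list holds. Then 5 of the 10 genes had a SON peak in untreated cells (MCM2, CCNA2, CDK1, CCNB1 and TOP2A), 7 at 3 days and 0 at 6 days, against 26.3%, 27.2% and 21.5% of all genes. Over all genes with an untreated SON peak, 70.2% had one at 3 days and 37.2% at 6 days. Among the 8004 genes with SON peaks in untreated cells and at 3 days, 50.6% also had one at 6 days, and 0 of the 7 did. With both peaks required within 1 kb of a start, 41.7% of 5482 genes had a 6-day peak there, again with 0 of the 7. With lines above an IDR of 0.05 left out, the counts were 7, 3 (MCM2, CDK1 and CCNB1) and 0, against 45%, 24% and 5.02% of all genes. The 3-day peaks of CCNA2, CCNB2, TOP2A and EZH2 had an IDR above 0.05.

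Other genes of the cell cycle had 6-day SON peaks, with an IDR from 0.000169 at CKS2 to 0.63, the largest in that list. Over 144 further genes in 4 lists, 131 had an untreated SON peak (91%), 97 a 3-day peak (67.4%), 38 a 6-day peak (26.4%) and 50 an HMGB2 peak (34.7%). The first 2 shares stand above those of all protein-coding genes, and the 6-day share is near its background of 21.5%. Of the 95 genes with untreated and 3-day peaks, 37 (38.9%) had one at 6 days, below the 50.6% of all such genes. Peaks in these windows may belong to neighbouring genes.

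Of 48 genes of G1/S and DNA replication, 44 had an untreated SON peak (91.7%) and 31 a 3-day peak (64.6%). A 6-day peak was at 12 (25%) and an HMGB2 peak at 19 (39.6%). All protein-coding genes stood at 57.1%, 41%, 21.5% and 23.3%, in that order. The strongest at 6 days was at POLD1, the catalytic subunit of DNA polymerase delta. It had a −log10 p of 32.1, 52.6 and 21.97 in the untreated, 3-day and 6-day lists, the order used below. Its ranks were 1357 of 22362, 305 of 11158 and 242 of 5583. A lower −log10 p in a later list therefore need not mean a lower place in it. The values printed below without ranks likewise do not show a gain or loss between lists. POLA2, of the polymerase alpha complex, had 47.0, 66.2 and 15.99, and RPA2, of the single-strand binding protein RPA, had 63.9, 35.3 and 12.9. CHAF1A, of a chromatin assembly factor, had 57.2, 24.7 and 12.9. The 6-day IDR of POLD1, POLA2, RPA2 and CHAF1A was 0.00171, 0.0102, 0.0667 and 0.0414, in that order. FEN1, the flap endonuclease, had 15.6 and 10.2 and no 6-day peak, and its HMGB2 peak had a fold of 7.38.

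Of 61 genes of G2/M and mitosis, 58 had a SON peak in untreated cells (95.1%) and 44 at 3 days (72.1%). At 6 days 17 had one (27.9%), and 23 had an HMGB2 peak (37.7%). The shares of all protein-coding genes were 57.1%, 41%, 21.5% and 23.3%, in that order. CKS2, a small subunit of CDK complexes, had 69.8, 77.0 and 32.2, and its 6-day peak ranked 127 of 5583 with an IDR of 0.000169. SPC24, of the kinetochore complex NDC80, had 48.6, 43.7 and 21.2, and UBE2C, the ubiquitin carrier of the anaphase-promoting complex, had 28.4, 18.8 and 15.4. The 6-day IDR was 0.00105 for SPC24 and 0.0171 for UBE2C. CDCA3 had the strongest untreated peak of the list, with 155, and 55.9 and 7.22 later. The 6-day IDR of the CDCA3 peak was 0.347. BUB3, of the spindle checkpoint, had 69.6, 36.1 and 8.37, with a 6-day IDR of 0.375. SMC2, a condensin subunit, had the strongest HMGB2 peak, with a fold of 11.8 and rank 23 of 6013, while its SON peak was present in untreated cells only (11.7). NCAPD2, another condensin subunit, had an HMGB2 fold of 6.60 and SON peaks of 22.4 and 11.1. CKS1B had an HMGB2 fold of 5.72 and SON peaks of 16.9, 32.1 and 13.8, with a 6-day IDR of 0.0343.

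Of 19 RB, E2F and DREAM genes, 15 (78.9%), 11 (57.9%) and 5 (26.3%) had SON peaks in the 3 lists, and HMGB2 peaks were at 3 (15.8%). All protein-coding genes stood at 57.1%, 41% and 21.5% for SON and 23.3% for HMGB2. LIN37, a MuvB subunit, led the list with 69.7, 58.7 and 15.8, and its 6-day IDR was 0.00842. E2F6, a repressive E2F, had 23.8, 25.1 and 9.59, and E2F3 had 21.5, 9.99 and 5.43. LIN52 had 26.8, 11.8 and 7.71, and RBBP4, a histone-binding protein, had 10.7, 7.77 and 8.71. The 6-day IDR was 0.17 for E2F6 and 0.63, the largest in that list, for E2F3, LIN52 and RBBP4. Of 16 further cyclin, CDK and CDK inhibitor genes, 14 (87.5%), 11 (68.8%) and 4 (25%) had SON peaks and 5 (31.2%) had HMGB2 peaks. CDK2, the partner of cyclins E and A, had 29.6, 20.4 and 13.0, and the G1 kinase CDK4 had 30.5, 24.2 and 6.18. The CDK inhibitor gene CDKN2D had 30.8, 32.8 and 10.7, and CCNH, the cyclin of the CDK-activating kinase, had 23.4, 8.11 and 8.54. The 6-day IDR was 0.0389 for CDK2, 0.391 for CDK4, 0.123 for CDKN2D and 0.263 for CCNH. Each of the 3 genes CDK2, CDK4 and CDKN2D also carried an HMGB2 peak, with folds of 3.87, 6.35 and 4.53.

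Other genes of PRC2 had 6-day SON peaks where EZH2 had none. Of 8 such genes, the EZH2 paralog EZH1 among them, untreated SON peaks were at 8 (100%) and 3-day peaks at 6 (75%). There were 6-day peaks at 5 (62.5%) and HMGB2 peaks at 3 (37.5%). All protein-coding genes stood at 57.1%, 41%, 21.5% and 23.3%, in that order. The 5 genes with 6-day peaks had 10.3 to 22.9 in untreated cells, where EZH2 had 6.14. Of untreated peaks of like strength to that of EZH2, 6% were found at 6 days, and 3.01% of those at starts. JARID2, which recruits the complex, had 22.9, 11.8 and 9.63. The core subunit EED had 13.9, 13.7 and 7.90, and the core subunit SUZ12 had 15.4 in untreated cells, no 3-day peak and 6.10 at 6 days. The 6-day IDR of the 5 genes ran from 0.238 at JARID2 to 0.63 at SUZ12, and none was at or below 0.05. MTF2, an accessory subunit, had 17.8 and 11.5 and no 6-day peak.

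**Figure D4:**
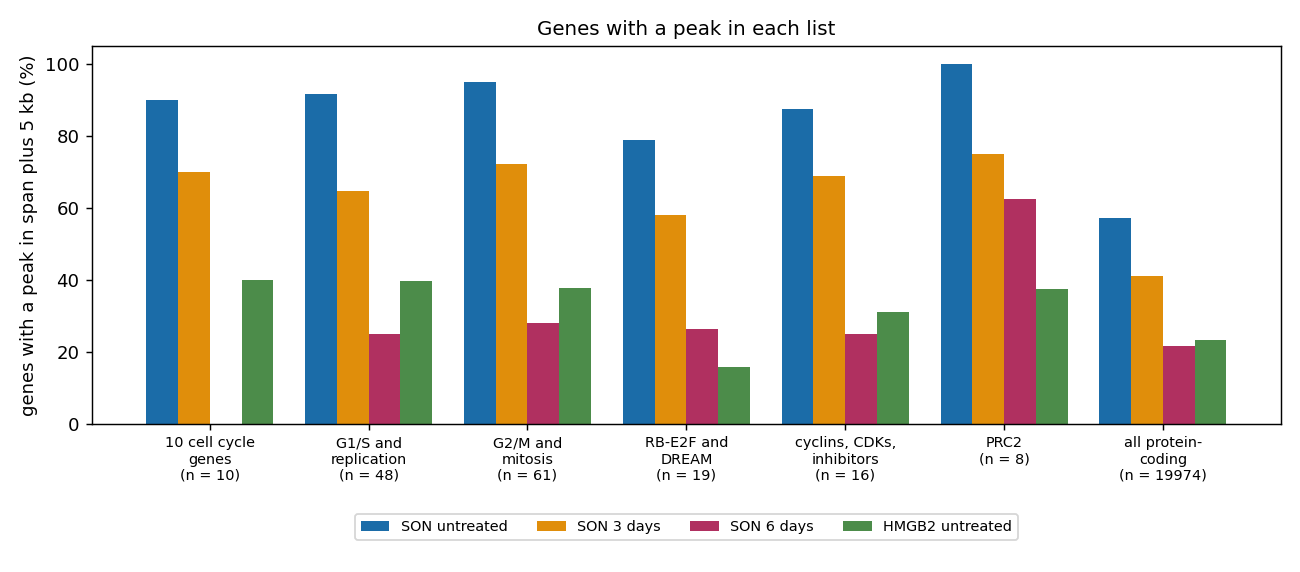
Percent of genes with a peak in the span plus 5 kb (y axis) in the 4 peak lists (bars), for the 10 cell cycle genes, 5 further gene lists and all protein-coding genes, with the number of genes under each. The bar for SON at 6 days is at 0 for the 10 genes and between 25% and 62.5% for the 5 lists, against 21.5% of all protein-coding genes.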

How the data were processed

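Of the 6 samples, 4 had peak lists that were used, grouped by the titles and treatment labels. The submitters' processing notes name hg38, bcl2fastq 2.17, Bowtie2, deepTools and MACS2, without their roles. The SON lists, per their layout and values, came from the IDR tool on 2 replicates: the authors deposited a −log10 p per line (the lower of the replicates), −log10 IDR and a score that is its scaled form. Their columns for signal and q are unfilled. The HMGB2 columns that the authors deposited are fold enrichment, −log10 p, −log10 q and a score, with a q cutoff of 0.03 in the peak names. No cutoff for SON is stated. Whether the HMGB2 list pools replicates is not given in the sources used here.

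Gene spans and starts were from RefSeq tables of GRCh38.p14, and coordinates are 1-based. Ranks are by −log10 p over all lines of a list. An overlap of 1 bp made a peak shared between lists. All 151 genes of the further lists matched the table. From each, the 3 genes with the strongest untreated SON, 6-day SON and HMGB2 peak were named. The genes, lists and rules were chosen with earlier results of these data known. No test was made, since each group has 1 list. The overlap code was tested on simulated data. Alternatives covered the window, a stricter threshold, equally long lists and the overlap. Analyses used Python 3.11.15, numpy 2.4.6 and pandas 2.3.3.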

Additional observations from a re-analysis of the deposited data

How the results depend on the processing

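In all, 7 counts were recomputed under alternatives fixed with the design: the genes with a peak in each of the 4 lists, those whose strongest untreated SON peak was found at 3 and at 6 days, and those whose HMGB2 peak met an untreated SON peak. Of 49 recomputed counts 44 stayed within 1.5 times the reported one. The other 5 were as follows. With 10 kb each side the 6-day count was 1 (24.5% of all genes), from the peak in NECAB3 near E2F1. With equally many strongest lines the untreated count was 5 (26.3%). With only lines of an IDR up to 0.05 the 3-day count was 3 (24%), and 3 of 7 untreated peaks were found at 3 days, against 31.7% of that list. With those up to 0.01 the 3-day count was 2 (14%). Apart from the 10-kb window, the 6-day count was 0 in every alternative run. The other alternatives for this count took the same windows and lines or parts of them, so it could not rise above 0. These counts of 0 are among the 44 and say nothing about stability. With like strength taken within 2 percentile points the median shares were 82% at 3 days and 36.7% at 6 days, against 81.2% and 36.8%. No replicate could be left out, and no paired analysis was possible because each group has 1 list. The lists give no read counts, so depth and weak signal below the thresholds of the callers could not be examined.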

Other observations

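Within 500 kb of the 10 genes, leaving out the 5-kb windows themselves, lay 113 untreated SON peaks, 62 at 3 days (54.9% of 113) and 27 at 6 days (23.9%), where the whole lists fell to 49.9% and 25.0% of the untreated length. TOP2A and E2F1 held 11 and 9 of the 27, and 32 and 16 of the 113. Around the other 8 genes lay 65 untreated peaks, 32 at 3 days (49.2%) and 7 at 6 days (10.8%). TOP2A and E2F1 had the most 6-day peaks, so the lower share around the rest follows from setting these 2 apart. Whether the surrounding peaks of the 3 SON lists were the same peaks was not examined. No 6-day peak lay within 500 kb of MCM2, CDK1 and MKI67. The nearest 6-day peak lay 8.57 kb from E2F1, 29.7 kb from TOP2A, 73.0 kb from CCNB1 and 755 kb from CDK1, with a median of 158 kb over the 10 genes and 85.2 kb over all protein-coding genes.

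The peak near E2F1 was the only one within 10 kb of any of the 10 genes to appear in all 4 lists. It lay in NECAB3, at chr20:33666631-33666906 in the 6-day list, and its −log10 p was 12.2, 9.81 and 5.31 in the untreated, 3-day and 6-day lists. Its 6-day line ranked 5448 of 5583 with an IDR of 0.63, and its HMGB2 peak had a fold of 4.39.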
